A study of Mus musculus with 12 samples.

Results

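The endothelium of the liver sinusoids was followed through 10 genes of the 54232 Ensembl gene IDs counted in whole mouse liver. Stab1, Stab2, Lyve1, Clec4g, Kdr, Fcgr2b, Pecam1 and Nos3 were taken as 8 markers of sinusoidal endothelial cells, and Cd34 and Plvap as 2 genes linked to capillary endothelium. Of the 8, Kdr, Pecam1 and Nos3 are made by endothelium in general and are not particular to sinusoids. The 10 genes were chosen by symbol, each matched 1 gene ID of GENCODE release M21, and all had enough counts to be tested. The livers came from an intragastric model of alcohol-associated steatohepatitis (ASH), with 5 pair-fed (PF) and 7 alcohol-fed (AF) mice and 1 library of raw read counts per mouse. All mice were male C57BL6/J without a transgene or deletion, and the feeding experiment lasted 8 weeks. Both groups had a high-fat liquid diet infused into the stomach, to which ethanol was added in AF mice at a dose raised to 27 g/kg/day, with a weekly ethanol binge of 5 g/kg. The study's methods also give a solid Western diet rich in cholesterol and saturated fat, eaten freely beside the infusion after a period of solid feeding on it or on chow, without saying which solid diet PF mice had. PF mice had the same calories without ethanol, and according to the study's methods livers were taken on the day after the last binge. The labels give the age of both groups as 8 weeks and do not say whether this is the age at the start.

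Liver sinusoidal endothelial cells line the blood channels between plates of hepatocytes. They carry open pores called fenestrae, lack an organized basement membrane and clear waste proteins and immune complexes from blood through scavenger and Fc receptors. In chronic liver injury these cells can lose fenestrae and take on features of ordinary capillaries, a change called capillarization that is commonly followed by gain of CD34, deposition of basement membrane and loss of sinusoidal markers.

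Between 24129900 and 28594027 reads were counted on genes in PF livers and between 25099033 and 30578639 in AF livers. Counts are given as CPM, counts scaled to a common library total after correction by edgeR's TMM factors, which were 0.832 to 0.901 in PF and 0.88 to 1.36 in AF livers, highest in AF replicate 1. The first principal component held 59.9% of the variance and placed PF livers at -73.3 to -52.5 and AF livers at -7.73 (replicate 6) to 83.9 (replicate 1). The libraries matched the label of whole liver, with the hepatocyte gene Alb at 37147.4 CPM or more and the endothelial cadherin gene Cdh5 at 19.2 CPM or more in every liver. Each library came from another mouse, so the spread between replicates includes differences between animals.

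Compared to PF, AF livers had more RNA of both capillary genes and of 1 sinusoidal gene, and no sinusoidal gene was called lower. Cd34 was 3.31-fold higher, Lyve1 2.22-fold higher and Plvap 1.55-fold higher on the fitted scale. Of the 8 sinusoidal members 1 was higher and 0 were lower by edgeR's quasi-likelihood test at a Benjamini-Hochberg adjusted p of 0.05, while 22.0% of the 14168 genes tested were higher and 17.8% were lower. DESeq2 and limma-voom also called 0 of the 8 lower, against 20.7% and 18.2% of all genes. In edgeR 0 fell at an unadjusted p under 0.05, a level at which the share of all genes was not counted. A list of 8 genes is too short to set a count of 0 apart from these shares. Both of the 2 capillary members were higher. The median log2 fold change was 0.22 over the sinusoidal members, 1.18 over the capillary members and 0.04 over all genes tested. In the GENCODE annotation of GRCm38, Cd34 (ENSMUSG00000016494) lies at chr1:194938819-194961279 on the plus strand, Plvap (ENSMUSG00000034845) at chr8:71497765-71511752 and Lyve1 (ENSMUSG00000030787) at chr7:110850607-110863239, both on the minus strand, and reads over the exons of each protein-coding gene were summed. In bulk tissue, fewer cells of a type and less RNA per cell cannot be told apart, and neither can more cells and more RNA per cell.

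**Figure D1:**
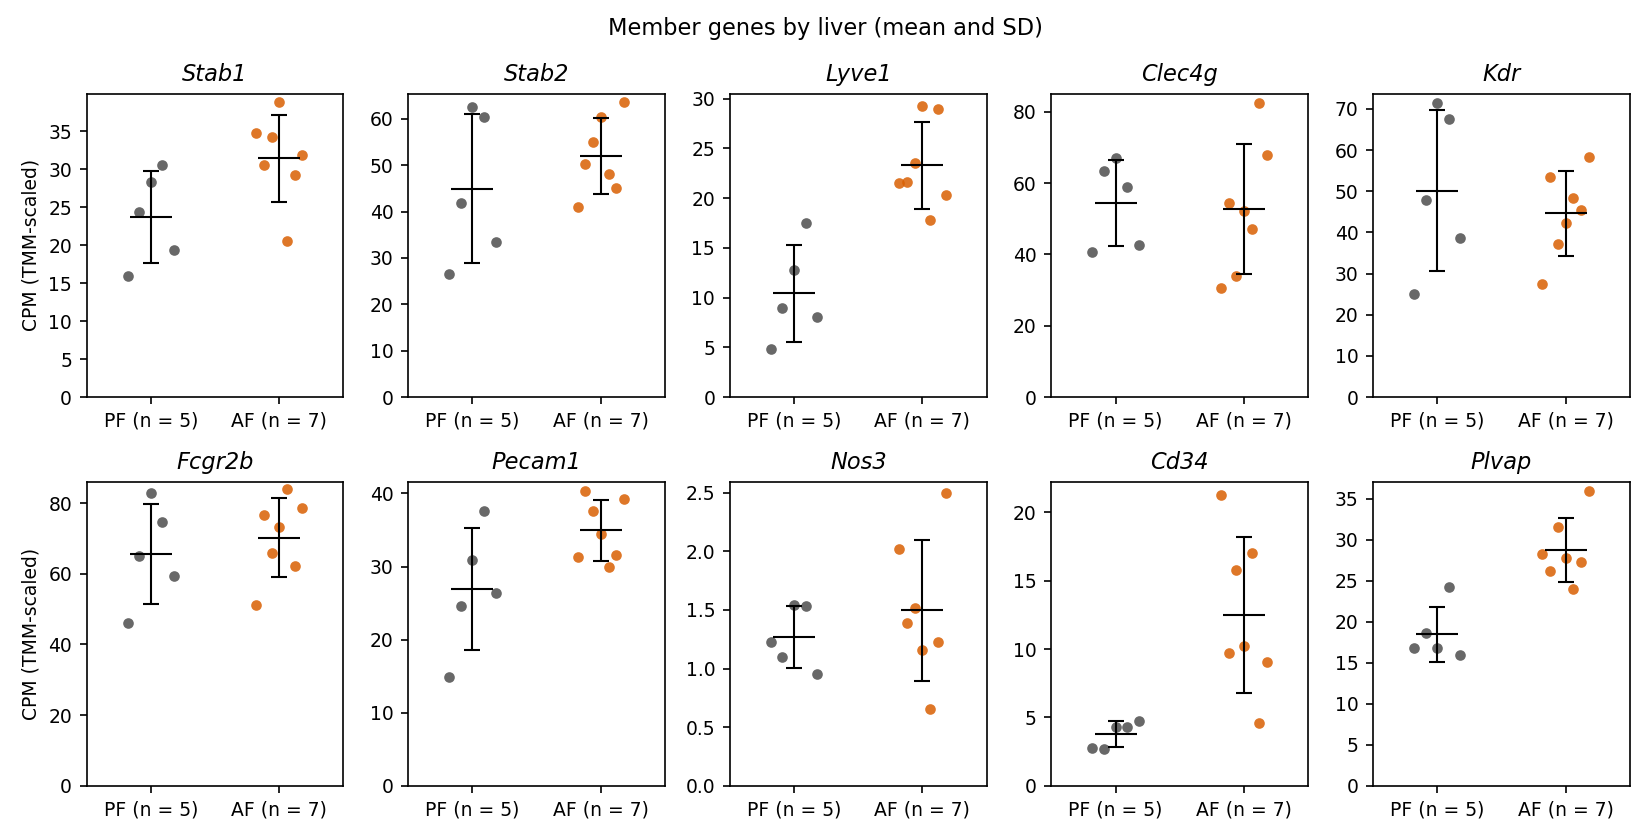
CPM of the 10 member genes in each liver, on linear axes that start at 0. Points are livers (5 PF, grey, and 7 AF, orange), and black marks are the mean and SD. All 7 AF livers lie above the PF livers for Lyve1 and 6 of 7 do for Cd34 and Plvap, while both groups overlap for the other genes.

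Cd34, which encodes a sialomucin of capillary endothelium, of blood progenitors and of some fibroblasts, had 2.76, 2.70, 4.33, 4.33 and 4.75 CPM in PF replicates 1 to 5. In AF livers the lowest, median and highest values were 4.58, 10.2 and 21.3 CPM. Every AF liver but replicate 6 lay above the highest PF liver, and replicate 1 was the highest. The means were 3.77 ± 0.97 CPM in PF (SD, n = 5) and 12.5 ± 5.72 CPM in AF (SD, n = 7). On the log2 scale edgeR estimated a difference of 1.73 with a standard error of 0.333 and an adjusted p of 0.00172, and its 95% interval ran from 1.01 to 2.44.

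Plvap encodes the protein that forms the diaphragms of fenestrae and caveolae and is used as a marker of vein and capillary endothelium. It had 16.8, 18.6, 16.8, 24.2 and 16 CPM in PF replicates 1 to 5, and 24.0, 27.8 and 36.0 CPM as the lowest, median and highest values in AF livers. PF replicate 4 and AF replicate 5 were the only livers whose values crossed, by a small margin. The means were 18.5 ± 3.32 CPM in PF (SD, n = 5) and 28.7 ± 3.91 CPM in AF (SD, n = 7), and the fitted log2 difference was 0.64 (SE 0.124, edgeR adjusted p = 0.00181).

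The letters just before the start of transcription are shown for Cd34 and for 2 sinusoidal members that missed the threshold, Stab1 and Clec4g, so that the starts of capillary and sinusoidal genes can be read side by side. RefSeq windows of build GRCm38.p6 were found for 6 of the 10 members (Stab1, Stab2, Clec4g, Kdr, Fcgr2b and Cd34), and none was matched for Lyve1, Pecam1, Nos3 and Plvap. Each run has 250 bases, is written 5′ to 3′ on the strand of the gene and ends just before the RefSeq start. Capitals mark AGGAAG on either strand, a longer string around GGAA, the core letters of ETS factors. These factors are a family of regulators of many endothelial genes. The windows lie at chr1:194938571-194938820 (plus strand) for Cd34, chr14:31168642-31168891 (minus strand) for Stab1 and chr8:3720652-3720901 (minus strand) for Clec4g.
Cd34: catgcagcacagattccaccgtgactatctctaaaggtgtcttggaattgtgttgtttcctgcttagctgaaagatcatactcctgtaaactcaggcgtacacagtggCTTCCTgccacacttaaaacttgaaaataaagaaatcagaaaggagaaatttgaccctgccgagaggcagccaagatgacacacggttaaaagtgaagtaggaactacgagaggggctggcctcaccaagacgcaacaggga
Stab1: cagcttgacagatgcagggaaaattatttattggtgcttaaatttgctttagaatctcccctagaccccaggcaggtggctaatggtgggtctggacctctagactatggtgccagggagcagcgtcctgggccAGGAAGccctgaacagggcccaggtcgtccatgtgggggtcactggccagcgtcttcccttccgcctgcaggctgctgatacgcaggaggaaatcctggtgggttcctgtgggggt
Clec4g: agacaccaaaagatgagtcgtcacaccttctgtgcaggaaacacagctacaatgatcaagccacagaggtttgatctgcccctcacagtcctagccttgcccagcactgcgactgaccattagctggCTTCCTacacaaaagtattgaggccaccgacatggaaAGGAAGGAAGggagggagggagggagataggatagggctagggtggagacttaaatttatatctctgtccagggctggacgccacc

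Cd34, Stab1 and Stab2 held AGGAAG 1 time each and Clec4g 3 times, with 2 of its matches sharing bases, while Kdr and Fcgr2b did not hold it. The shorter core GGAA was not counted, and it does occur in the windows of Kdr and Fcgr2b. Of all 32851 RefSeq windows of this length, 29.5% held AGGAAG or its reverse complement CTTCCT. The GATA letters AGATAA, found in 9.99% of all windows, and the AP-1 letters TGACTCA, found in 4.46%, were in none of the 6 windows on either strand. These matches describe the letters only, and no binding was measured.

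Lyve1, a hyaluronan receptor of sinusoidal and lymphatic endothelium and of some macrophages, was the sinusoidal member that rose. PF replicates 1 to 5 had 4.87, 8.92, 12.8, 17.5 and 8.10 CPM, and AF livers had 17.8 CPM at the lowest, 21.6 at the median and 29.3 at the highest. All AF livers were above all PF livers, although AF replicate 5 and PF replicate 4 were close. The means were 10.4 ± 4.87 CPM (SD, n = 5) and 23.3 ± 4.34 CPM (SD, n = 7), and the fitted log2 difference was 1.15 (SE 0.254, edgeR adjusted p = 0.00372, 95% interval 0.61 to 1.70). Of all genes tested, 8.2% had every AF liver above every PF liver in CPM.

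Stab1 and Stab2 encode the stabilins, scavenger receptors that take up modified proteins and, for stabilin-2, hyaluronan. Stab1 had 15.9, 24.4, 28.3, 30.6 and 19.3 CPM in PF replicates 1 to 5 and 20.6, 31.9 and 38.8 CPM as the lowest, median and highest AF values. The ranges overlapped, with 4 of 7 AF livers above all PF livers, and the log2 fold change of 0.40 (SE 0.175) had an edgeR adjusted p of 0.0797. Stab1 passed the test without PF replicate 4 (edgeR adjusted p = 0.0456) and without AF replicate 5 (adjusted p = 0.026). Stab2 had 26.6, 41.9, 62.6, 60.3 and 33.4 CPM in PF replicates 1 to 5 and 40.9, 50.3 and 63.6 CPM as the lowest, median and highest AF values. The AF livers lay almost wholly within the PF range, and the log2 fold change of 0.21 (SE 0.199, edgeR adjusted p = 0.426) had a 95% interval from -0.22 to 0.64.

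Clec4g, a C-type lectin (LSECtin) of liver and lymph node sinusoids, and Fcgr2b, the inhibitory Fc receptor that removes small immune complexes, did not pass the test. Clec4g had 40.7, 63.3, 66.9, 58.9 and 42.7 CPM in PF replicates 1 to 5. AF livers spread more widely, with 30.5, 52.1 and 82.5 CPM as the lowest, median and highest values, so that AF livers lay on both sides of the PF range. The log2 fold change was -0.05 (SE 0.231, edgeR adjusted p = 0.874, 95% interval -0.55 to 0.45), and it was 0.25 with library totals and -0.32 with libraries scaled to pan-endothelial genes. Fcgr2b had 46.2, 65.1, 82.9, 74.8 and 59.5 CPM in PF replicates 1 to 5 and 51.1, 73.3 and 84.1 CPM as the lowest, median and highest AF values. These ranges nearly coincided, and the log2 fold change was 0.10 (SE 0.15, edgeR adjusted p = 0.632, 95% interval -0.23 to 0.42). Fcgr2b shares a closely similar extracellular sequence with Fcgr3, and how the authors counted reads that match both was not given in the sources used here.

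Kdr encodes VEGF receptor 2, the main signalling receptor for VEGF on endothelium. It had 25.0, 47.9, 71.4, 67.6 and 38.6 CPM in PF replicates 1 to 5 and 27.4, 45.5 and 58.3 CPM as the lowest, median and highest AF values. Every AF value fell inside the PF range, and the log2 fold change was -0.17 (SE 0.242, edgeR adjusted p = 0.601, 95% interval -0.69 to 0.35), against 0.15 with library totals. Pecam1, the junctional adhesion molecule CD31, had 14.9, 24.6, 30.9, 37.6 and 26.4 CPM in PF replicates 1 to 5 and 30.0, 34.5 and 40.3 CPM as the lowest, median and highest AF values. The upper PF livers overlapped the AF livers, and the log2 fold change of 0.38 (SE 0.177) had an edgeR adjusted p of 0.103, which became 0.0307 without PF replicate 4. Nos3, the endothelial nitric oxide synthase, was the scarcest member per kilobase, with 1.23, 1.10, 1.54, 1.53 and 0.95 CPM in PF replicates 1 to 5 and 0.656, 1.39 and 2.50 CPM as the lowest, median and highest AF values. AF livers lay both above and below the PF livers, and the log2 fold change of 0.23 (SE 0.294, edgeR adjusted p = 0.552) had a 95% interval from -0.40 to 0.86.

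Some member genes overlap another gene on the opposite strand, and the strand setting of the counting was not given in the sources used here. Exons of Stab1 overlap those of Nt5dc2, which had 1443 counts over all livers against 9659 for Stab1. Exons of Nos3 overlap those of Atg9b, which had 62 counts against 474 for Nos3. The overlap of Cd34 is with Gm16897, which had 19 counts against 3327, and Lyve1, Kdr and Pecam1 overlap no other gene.

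Because the groups differed in many transcripts, the members were also compared after 2 other scalings of the libraries. With library totals in place of TMM factors, the median log2 fold change of all genes moved to 0.40, and 5 sinusoidal members were called higher, namely Stab1, Stab2, Lyve1, Fcgr2b and Pecam1, with 45.6% of all genes tested called higher. When libraries were scaled to 18 pan-endothelial genes instead, the median of all genes was -0.27 and the question became whether a member changed relative to other endothelial transcripts. On this scale Lyve1 was higher by 0.96 (edgeR adjusted p = 0.00347) and Cd34 by 1.48 (adjusted p = 0.00381) in log2 units, while 9.37% of all genes tested were called higher. Plvap had a log2 fold change of 0.34 that missed the threshold (edgeR adjusted p = 0.0969). The 8 sinusoidal members had a median of -0.06 there, with 0 called lower against 25.4% of all genes tested. Of the 8, 1, Kdr, was lower at an unadjusted p under 0.05 (log2 fold change -0.40, edgeR adjusted p = 0.104). The share of all genes at that unadjusted level was not counted. The direction of Stab2, Fcgr2b and Nos3 also flipped, to -0.04, -0.17 and -0.08. Lyve1 and Cd34 were called higher under all 3 scalings.

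**Figure D2:**
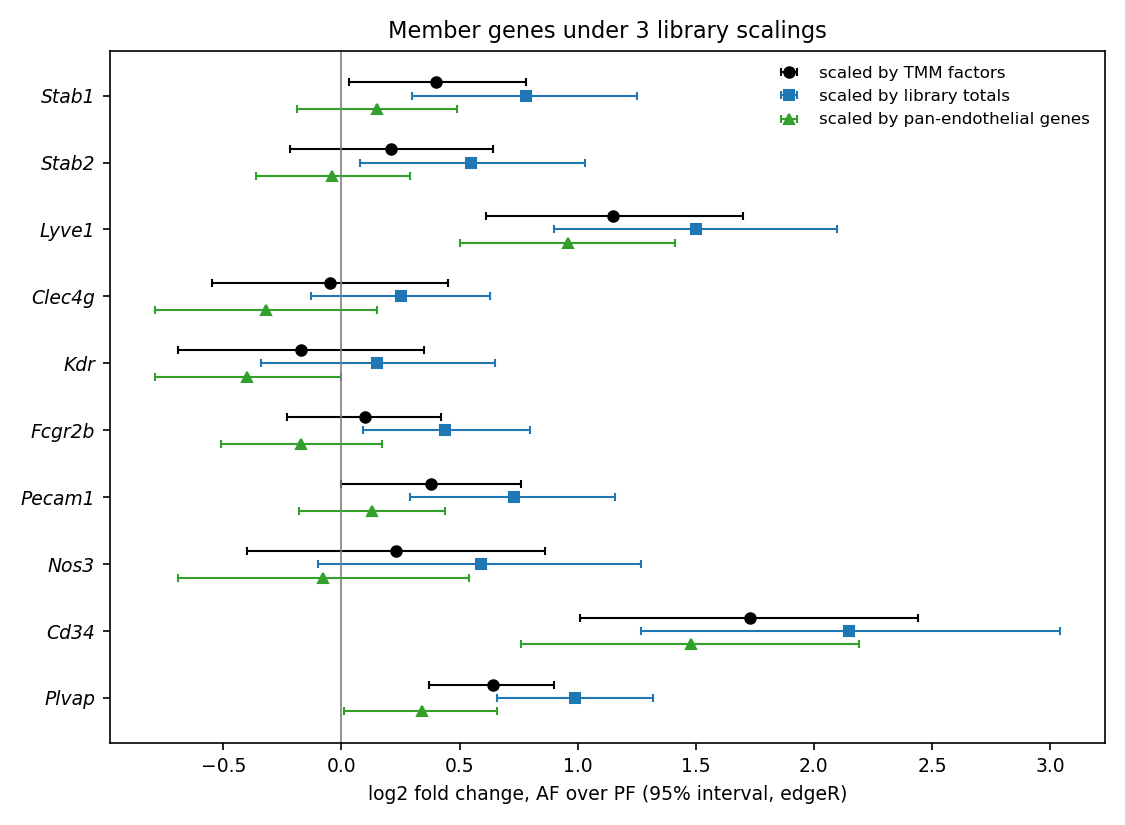
Log2 fold change of AF over PF for each member with its 95% interval from edgeR, after scaling by TMM factors (black circles), library totals (blue squares) or 18 pan-endothelial genes (green triangles). Cd34 and Lyve1 are right of 0 under each scaling. Stab2, Clec4g, Kdr, Fcgr2b and Nos3 change side with the scaling.

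In a difference taken within a liver the scaling of its library cancels, apart from the effect of the 0.5 CPM added before the log. The mean log2(CPM + 0.5) of the sinusoidal members minus that of Cd34 and Plvap was 1.03, 1.56, 1.70, 1.50 and 1.08 in PF replicates 1 to 5. In AF replicates 1 to 7 it was -0.05, 0.85, 0.26, 0.80, 0.24, 1.30 and 0.85. Every AF liver but replicate 6 lay below the lowest PF liver, and AF replicate 1 was the lowest. The means were 1.38 ± 0.30 (SD, n = 5) in PF and 0.61 ± 0.469 (SD, n = 7) in AF. The difference of -0.77 log2 units is given as a description without a test, and with 0.1 CPM added instead it was -0.81. It reflects the rise of Cd34 (log2 fold change 1.73) and Plvap (0.64), because the sinusoidal members did not fall as a group (median 0.22). AF replicates 1 and 6, the ends of the AF range, were also the highest and lowest AF livers in Cd34. The score is therefore not separate from the Cd34 and Plvap results.

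Relative to the mean log2 level of the 18 pan-endothelial genes of the same liver, Cd34 averaged -0.79 ± 0.323 in PF (SD, n = 5) and 0.46 ± 0.754 in AF (SD, n = 7). For Plvap the averages were 1.37 ± 0.236 and 1.75 ± 0.128, and for Lyve1 they were 0.48 ± 0.40 and 1.45 ± 0.334. In each of these 3 genes, 6 of 7 AF livers were above all PF livers. Clec4g averaged 2.89 ± 0.152 in PF and 2.55 ± 0.497 in AF, and Fcgr2b 3.16 ± 0.0805 and 3.02 ± 0.238, each with 6 of 7 AF livers below all PF livers and 1 above them. The exception was AF replicate 6 for Clec4g, at 3.44, and AF replicate 5 for Fcgr2b, at 3.48. Kdr averaged 2.70 ± 0.34 in PF and 2.35 ± 0.303 in AF, with 2 of 7 AF livers below all PF livers. With libraries scaled to the pan-endothelial genes, none of these 3 passed the test (edgeR adjusted p = 0.273 for Clec4g, 0.426 for Fcgr2b and 0.104 for Kdr). The pan-endothelial mean itself was 2.86 ± 0.279 in PF and 3.11 ± 0.183 in AF, with overlapping ranges.

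**Figure D3:**
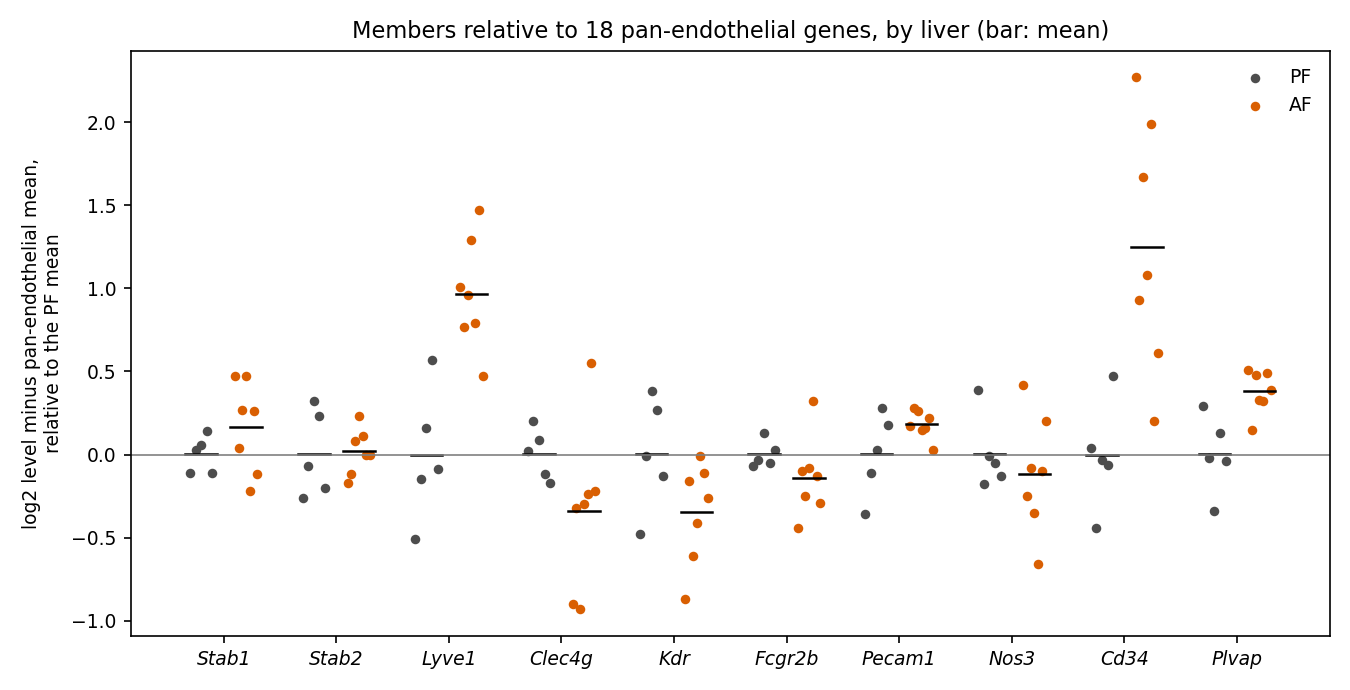
Log2(CPM + 0.5) of each member minus the mean of 18 pan-endothelial genes in the same liver, set to 0 at the PF mean. Points are livers (5 PF, grey, and 7 AF, orange) and bars are means. Cd34, Lyve1 and Plvap have 6 of 7 AF livers above the PF livers, and Clec4g and Fcgr2b have 6 of 7 below them. With libraries scaled to these genes Cd34 and Lyve1 passed the test, and Plvap, Clec4g and Fcgr2b did not.

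Much of the spread among PF livers was shared by the members. PF replicate 1 was the lowest PF liver for 7 of the 10 members, and PF replicates 3 and 4 were the highest for 5 and 4. After the pan-endothelial mean was subtracted, the SD among PF livers shrank for 8 of the 10 members, for example from 0.382 to 0.109 log2 units for Stab1 and from 0.323 to 0.0805 for Fcgr2b. In AF livers the SD also shrank for 8 of the 10 members. That of Cd34 in AF livers stayed wide, at 0.702 before and 0.754 after. AF replicate 1 had the lowest value of 4 members, Stab2, Clec4g, Kdr and Fcgr2b, and the highest value of Cd34. AF replicate 5 had the lowest value of 5 members, Stab1, Lyve1, Pecam1, Nos3 and Plvap.

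Per kilobase of exon, a scale that allows levels of different genes to be set side by side, Clec4g was the most abundant member in PF livers with 22.1 ± 4.89 CPM per kb (SD, n = 5). Fcgr2b followed with 11.3, Plvap with 9.30, Kdr with 5.55, Stab2 with 5.13, Pecam1 with 4.31, Lyve1 with 3.58, Stab1 with 2.31, Cd34 with 0.518 and Nos3 with 0.308. Only the steps from Clec4g to Fcgr2b, from Plvap to Kdr and from Stab1 to Cd34 had ranges that did not overlap between neighbours. In AF livers the order was Clec4g at 21.4 CPM per kb, Plvap at 14.5, Fcgr2b at 12.1, Lyve1 at 7.98, Stab2 at 5.93, Pecam1 at 5.61, Kdr at 4.94, Stab1 at 3.06, Cd34 at 1.72 and Nos3 at 0.362. There only the step from Cd34 to Nos3 was clear of overlap, and Lyve1 stood at place 4 where it had been at place 7 in PF livers.

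Other genes of the same cells were read from lists of known genes. Of 13 further sinusoidal genes tested, 3 were higher, 0 were lower and the median log2 fold change was 0.20. The share higher was close to that over all genes tested, of which 22.0% were higher and 17.8% lower, and the count of each list that follows stands beside these same shares. With library totals 7 of the 13 were higher, where 45.6% of all genes tested were higher. In replicates 1 to 5 of both groups, with or without the replicate block, 1 of the 13 was lower. Cd36, a fatty acid and thrombospondin receptor that hepatocytes and macrophages also express, averaged 112 ± 56.4 CPM in PF (SD, n = 5) and 428 ± 43.9 CPM in AF livers (SD, n = 7), and rose by 1.93 in log2 units (SE 0.28, edgeR adjusted p = 0.000291). Clec1b, a lectin receptor for podoplanin found on sinusoidal endothelium, Kupffer cells and platelets, rose by 0.95 (SE 0.206, edgeR adjusted p = 0.00335). The sinusoidal transcription factor gene Gata4 had a log2 fold change of 0.43 (edgeR adjusted p = 0.103), which became significant without PF replicate 3 (adjusted p = 0.0137). Gata4 was also called higher with library totals (0.78, edgeR adjusted p = 0.00983). The calls of Cd36 and Clec1b held when any 1 library was left out, while the third call, Il1a (log2 fold change 0.73, edgeR adjusted p = 0.0453), held only without PF replicate 3, PF replicate 4 or AF replicate 6.

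Of the 18 pan-endothelial genes, 3 were higher, 0 were lower and the median was 0.36. With library totals 12 were higher, with upper-quartile factors 6, and with scaling to these same genes 0 were higher and 2 lower. Sox18, a transcription factor gene of vessel development, had a log2 fold change of 0.68 (SE 0.21, edgeR adjusted p = 0.0204), and Eng, a coreceptor for TGF-β family ligands, of 0.51 (SE 0.165, edgeR adjusted p = 0.025). The call of Sox18 was lost without PF replicate 1 (adjusted p = 0.0507) and that of Eng without PF replicate 1, PF replicate 5 or AF replicate 2 (adjusted p of 0.0501 to 0.0621), and both were lost with scaling to the pan-endothelial genes (adjusted p = 0.221 for Sox18 and 0.182 for Eng). Egfl7, a secreted endothelial protein gene named after its values were seen, had a log2 fold change of 0.43 (SE 0.13, edgeR adjusted p = 0.018), and its call held when any 1 library was left out. Without PF replicate 1, only 1 of the 18 genes, Egfl7, was called higher.

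Among 10 tested genes of continuous endothelium and basement membrane, 6 were higher and 1 was lower, with a median log2 fold change of 0.74. Nid1, which encodes nidogen-1, a linker of laminin and collagen IV, averaged 20.6 ± 7.10 CPM in PF (SD, n = 5) and 111 ± 56.5 CPM in AF livers (SD, n = 7), and rose by 2.42 in log2 units (SE 0.389, edgeR adjusted p = 0.000576). Col4a1, a chain of collagen IV, rose from 23.0 ± 7.91 to 74.2 ± 21.5 CPM (log2 fold change 1.69, SE 0.237, edgeR adjusted p = 0.000231). All AF livers were above all PF livers for both genes, and both calls held when any 1 library was left out. Stellate cells also make basement membrane, so these transcripts are not particular to endothelium. Vwf, the von Willebrand factor gene of large vessels and capillaries, had a log2 fold change of 0.71 (SE 0.248, edgeR adjusted p = 0.0364), and its call was lost in 8 of 12 fits with a library left out (adjusted p of 0.051 to 0.0895; PF replicates 1, 2, 3 and 5 and AF replicates 1 to 4). The Vwf call was also lost with pan-endothelial scaling (0.46, adjusted p = 0.176), with limma-voom (adjusted p = 0.0627) and with thinned libraries (adjusted p = 0.0536). Cav1, the main caveolar protein gene, did not pass (log2 fold change -0.02, edgeR adjusted p = 0.977), with AF replicate 1 at 8.06 CPM and AF replicate 6 at 1.41 CPM. Cdh13, the gene of an anchored cadherin, was called lower at -0.66 (edgeR adjusted p = 0.0474), and this call was lost without PF replicates 2, 3 or 4 or without any AF replicate but 2 (adjusted p of 0.0538 to 0.148). The Cdh13 call was also lost with library totals (-0.31, adjusted p = 0.324), upper-quartile factors (0.066), limma-voom (0.0532), genes kept from 1 count in any library (0.0834) and thinned libraries (0.0545).

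In the VEGF, angiopoietin and Notch list, 7 of 19 tested genes were higher and 2 were lower, with a median of 0.37. Vegfa, the ligand of Kdr that hepatocytes produce, had 57.9 to 84.9 CPM in PF livers and 29.3 to 49.4 CPM in AF livers. Every AF liver was below every PF liver, and the log2 fold change was -0.75 (SE 0.132, edgeR adjusted p = 0.000986). Nrp1, a coreceptor for VEGF and semaphorins, had 81.4 to 108 CPM in PF livers and 32.8 to 62.0 CPM in AF livers, again without overlap, and fell with a log2 fold change of -0.98 (SE 0.152, edgeR adjusted p = 0.000448). Both calls held when any 1 library was left out, and 9.49% of all genes tested had every AF liver below every PF liver. The VEGF and angiopoietin receptors Flt1, Flt4 and Tek did not pass the test, with log2 fold changes of -0.17 for Flt1 (edgeR adjusted p = 0.548), 0.27 for Flt4 (adjusted p = 0.296) and 0.00 for Tek (adjusted p = 0.995). Of the Notch genes, the receptor gene Notch1 was called higher at 0.41 (edgeR adjusted p = 0.0102), the ligand gene Dll1 at 0.83 (0.0129) and the target genes Hey1 and Hes1 at 1.09 (0.00951) and 0.80 (0.0113). These 4 calls held when any 1 library was left out. The ligand gene Dll4 (0.25, edgeR adjusted p = 0.401) and the receptor gene Notch4 (0.37, adjusted p = 0.257) did not pass. All of these Notch genes were named after their values were seen. Angpt1, the activating ligand of Tek, and Jag1, a Notch ligand, were called higher at 1.49 and 0.88 (edgeR adjusted p = 0.0374 and 0.0449). The Angpt1 call was lost without PF replicates 1, 2, 3 or 5 or AF replicates 1, 3 or 5 (adjusted p of 0.0502 to 0.0887), and the Jag1 call without the same livers or AF replicate 4 (adjusted p of 0.0543 to 0.102). Both calls were also lost with limma-voom (adjusted p = 0.0967 for Angpt1 and 0.0854 for Jag1), with pan-endothelial scaling (0.0595 and 0.114) and, for Angpt1, with quality weights (0.0563). The count of 7 fell to 4 without PF replicate 1, 2 or 3, and it was 0 when libraries were scaled to the pan-endothelial genes, while Vegfa and Nrp1 stayed lower on that scale.

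Around Nos3, 5 of 16 tested genes of the nitric oxide and endothelin systems were higher and 1 was lower, with a median of 0.26. Ednrb, the endothelin B receptor gene of sinusoidal endothelium and stellate cells, had 6.69 to 15.9 CPM in PF and 11.1 to 50.1 CPM in AF livers. Every AF liver but replicate 6 was above the PF livers, and the log2 fold change was 1.52 (SE 0.32, edgeR adjusted p = 0.00282). The ligand gene Edn1 (log2 fold change 0.24, edgeR adjusted p = 0.708) and the shear-induced factor gene Klf2 (-0.04, adjusted p = 0.884) did not pass. Ddah2, whose product removes an inhibitor of nitric oxide synthases, was higher at 1.27 (SE 0.387, edgeR adjusted p = 0.0197), although AF replicate 6 was below all PF livers and the call was lost with limma-voom (adjusted p = 0.0933) and with pan-endothelial scaling (adjusted p = 0.0661). Ece1, the endothelin-converting enzyme gene, was lower at -0.30 (SE 0.0889, edgeR adjusted p = 0.0177) with TMM factors, and at 0.07 (adjusted p = 0.658) with library totals its direction flipped. The Ece1 call was also lost with upper-quartile factors (adjusted p = 0.0509) and with genes kept from 1 count in any library (adjusted p = 0.0557). With scaling to the pan-endothelial genes, 2 of the 16 were higher.

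Of 6 angiocrine genes, signals that endothelial and neighbouring cells send to hepatocytes, 1 was higher. Hgf, the hepatocyte growth factor gene, had a log2 fold change of 1.00 (SE 0.306, edgeR adjusted p = 0.0204), which was lost without PF replicate 2 (adjusted p = 0.0544). The Wnt ligand genes of the central vein endothelium did not pass, with -0.46 for Wnt2 (edgeR adjusted p = 0.318), 0.82 for Wnt9b (adjusted p = 0.056) and 0.38 for the Wnt enhancer gene Rspo3 (adjusted p = 0.148). Wnt2 was called lower without AF replicate 7 (-0.81, edgeR adjusted p = 0.0311), and Wnt9b higher without PF replicate 3 (adjusted p = 0.0292) or AF replicate 6 (adjusted p = 0.0192). With all libraries Wnt9b was also called higher by DESeq2 (adjusted p = 0.0443), by limma-voom with quality weights (0.0205), and in edgeR with upper-quartile factors (0.0463) or library totals (0.0145). Rspo3 was called higher with library totals (0.71, edgeR adjusted p = 0.0121), where 3 of the 6 genes were higher. Without PF replicate 1 a different single gene of this list, Bmp2, was called lower (edgeR adjusted p = 0.0499), a gene named here after its values were seen.

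Of 6 tested endothelial activation and adhesion genes, 4 were higher and 0 were lower, with a median of 0.91. Sele, the gene of E-selectin, which endothelium makes upon activation, was low in both groups at 0.0492 to 0.375 CPM in PF and 0.281 to 1.18 CPM in AF livers, and the fitted log2 difference was 1.78 (SE 0.442, edgeR adjusted p = 0.00708). Cd44, a hyaluronan receptor of leukocytes and other cells, rose from 34.7 ± 6.50 to 77.9 ± 26.2 CPM (log2 fold change 1.17, SE 0.215, edgeR adjusted p = 0.00134). Icam1, an adhesion molecule for leukocytes, rose by 0.92 (SE 0.155, edgeR adjusted p = 0.000743). The 4 calls, which included Vcam1, held when any 1 library was left out, and Madcam1 had 0 counts in all livers. Sele was named after its values were seen.

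**Figure D4:**
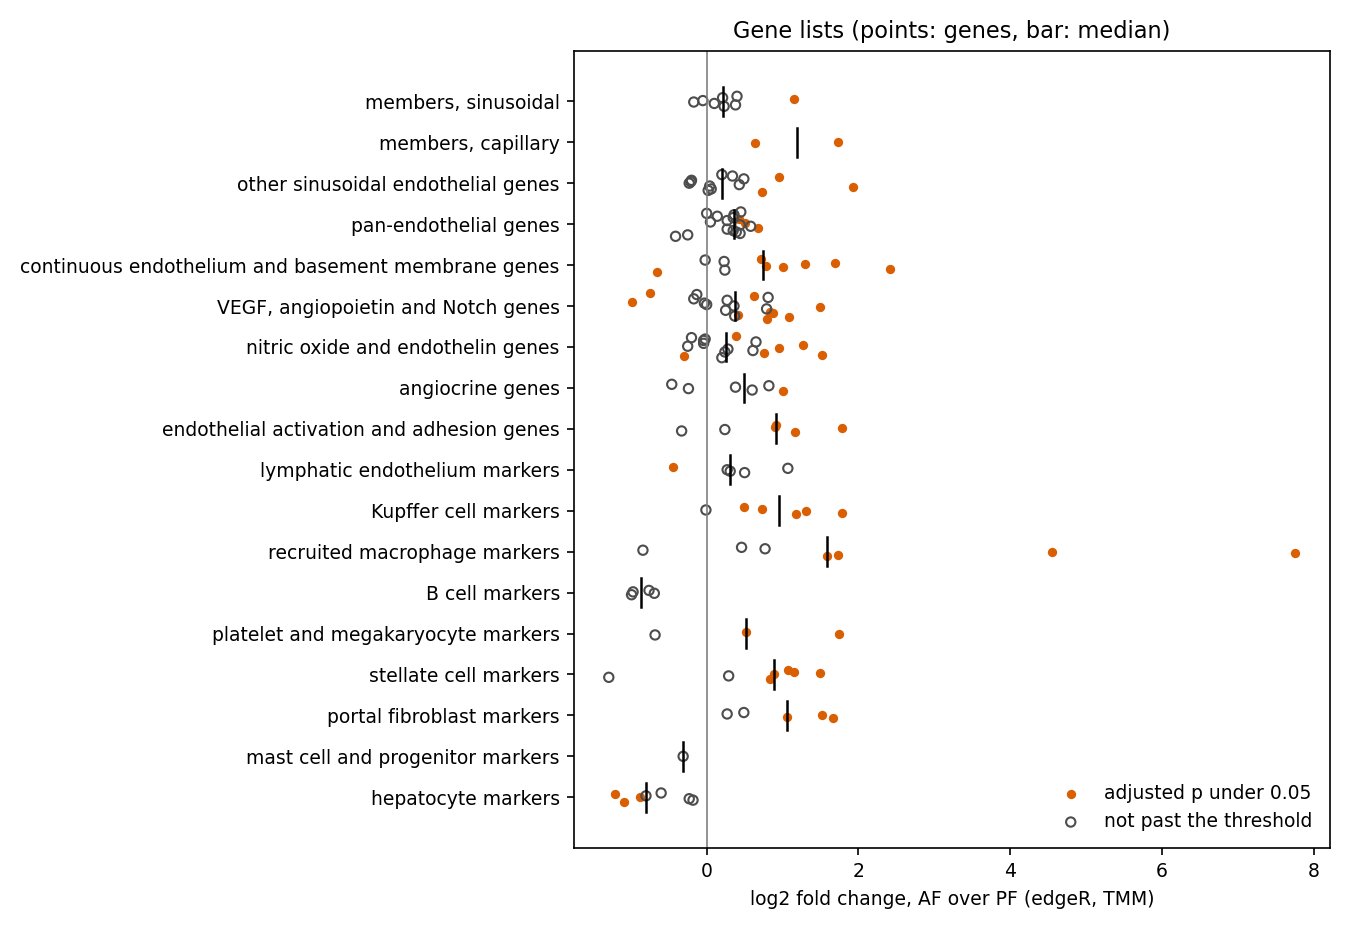
Log2 fold change of AF over PF for each tested gene of the members and of 16 lists (edgeR with TMM factors), with genes past an adjusted p of 0.05 in orange, other genes as open circles and the median of each list as a black bar. The medians are 0.22 for the sinusoidal and 1.18 for the capillary members, 0.74 for basement membrane genes and 1.59 for recruited macrophage markers.

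Markers of other cells that can carry member transcripts also moved. Lyve1, Stab1 and Fcgr2b are made by some macrophages, and 5 of 6 Kupffer cell markers and 4 of 7 recruited macrophage markers were higher in AF livers. The summed Kupffer cell markers were 616 to 886 CPM in PF and 891 to 2781.9 CPM in AF livers, and the summed recruited macrophage markers were 237 to 567 CPM and 543 to 2181.6 CPM. Marco, a scavenger receptor gene, and Cd5l, both markers of Kupffer cells, had log2 fold changes of 1.78 and 1.31 (edgeR adjusted p = 0.0139 and 0.0013). Timd4 of the same list did not pass (-0.01, edgeR adjusted p = 0.983), with 2 AF livers above and 2 below all PF livers. The call of Clec4f (0.49, edgeR adjusted p = 0.0493) held in only 1 of 12 fits with a library left out. The Kupffer cell count fell to 3 without PF replicate 1 or 2. Gpnmb, a gene of lipid-laden macrophages, went from 0.167 to 2.22 CPM in PF to 6.14 to 363 CPM in AF livers (edgeR adjusted p = 0.000325). The monocyte genes Ccr2, Itgam and Ly6c2 did not pass, with log2 fold changes of 0.46, 0.77 and -0.84 (edgeR adjusted p = 0.266, 0.103 and 0.219), although Itgam was called higher without AF replicate 7 (adjusted p = 0.0423). Lyz2, at a mean of 338 CPM in PF and 1015.1 CPM in AF livers, made up most of the recruited macrophage sum. No defining marker of either list was at 0 in all livers, and their part in the results for Lyve1, Stab1 and Fcgr2b was not tested. B cells also carry Fcgr2b, and 0 of their 4 markers passed by edgeR, with summed levels of 2.36 to 6.38 CPM in PF and 1.11 to 3.46 CPM in AF livers. At an adjusted p of 0.05, 1 B cell marker was lower without PF replicate 1, AF replicate 2 or AF replicate 5 and with thinned libraries, 2 with pan-endothelial scaling and 3 by limma-voom with quality weights.

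Cd34 is also made by portal fibroblasts, blood progenitors and mast cells. Of 5 tested portal fibroblast markers 3 were higher, with summed levels of 4.80 to 13.8 CPM in PF and 8.53 to 47.5 CPM in AF livers. AF replicate 1, the liver highest in Cd34, had the highest Dpt and Eln. Mfap4 and Thy1 were highest in AF replicate 3. Pi16 was highest in PF replicate 1 at 1.18 CPM, against at most 0.844 CPM in AF livers. The count of 3 higher fell to 1 without PF replicate 2 or 3. The Dpt call was also lost with limma-voom (adjusted p = 0.077) and with pan-endothelial scaling (edgeR adjusted p = 0.0533). The 5 mast cell and progenitor markers summed to 6.10 to 9.34 CPM in PF and 4.80 to 9.36 CPM in AF livers, the only tested one, Kit, did not pass (log2 fold change -0.31, edgeR adjusted p = 0.151), and it was called lower without AF replicate 7 (adjusted p = 0.0424). The part of fibroblasts and progenitors in the Cd34 result was not tested. Of 7 stellate cell markers 5 were higher, with sums of 200 to 451 CPM in PF and 425 to 635 CPM in AF livers. Pdgfrb and Des had log2 fold changes of 1.49 and 1.15 (edgeR adjusted p = 0.00105 and 0.00174). Hhip of this list did not pass (log2 fold change -1.29, edgeR adjusted p = 0.091), with 6 of 7 AF livers below all PF livers, and was called lower without AF replicate 6 (adjusted p = 0.0269). Dcn, at a mean of 220 CPM in PF and 409 CPM in AF livers, made up most of the stellate sum. The part of stellate cells in the basement membrane result was not tested. Of 3 tested platelet markers 2 were higher, Pf4 and Itga2b (and only Pf4 in 8 of the 12 fits with a library left out, those without PF replicates 1, 2, 3 or 5 or AF replicates 3, 4, 6 or 7), with sums of 2.20 to 3.89 CPM and 3.19 to 6.27 CPM, against 13.7 to 20.3 CPM in PF and 22.9 to 57.5 CPM in AF livers for Clec1b. The part of platelets in the Clec1b result was not tested. The Itga2b call was also lost with pan-endothelial scaling (0.22, edgeR adjusted p = 0.471) and with limma-voom (adjusted p = 0.0594). In edgeR it was lost too with genes kept from 1 count in any library (0.0971) and thinned libraries (0.0817). Replicates 1 to 5 also lost it, with the block (0.115) and without it (0.0961).

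Lyve1 and Flt4 are also lymphatic genes. Of 5 tested lymphatic markers 0 were higher and 1, Prox1, was lower (log2 fold change -0.45, SE 0.164, edgeR adjusted p = 0.0417), and Prox1 is also a hepatocyte gene. Its call was lost without any of PF replicates 1 to 4 or AF replicates 1 to 4 and 7 (adjusted p of 0.0501 to 0.13), and also with library totals (-0.11, adjusted p = 0.549), upper-quartile factors (0.0571) and genes kept from 1 count in any library (0.0636). The other 4 had log2 fold changes of 1.07 for Pdpn, 0.50 for Reln, 0.31 for Mmrn1 and 0.27 for Flt4, none of which passed (edgeR adjusted p of 0.099, 0.119, 0.712 and 0.296). Without PF replicate 3, PF replicate 4 or AF replicate 6, 1 lymphatic marker was called higher. With library totals 3 were higher, among them Flt4 (0.63, edgeR adjusted p = 0.0403), where 45.6% of all genes tested were higher. By limma-voom with quality weights 1 was higher. The summed markers were 154 to 259 CPM in PF and 155 to 226 CPM in AF livers, mostly from Prox1 at means of 130.0 and 95.3 CPM, and Ccl21a, which defines lymphatic vessels and stayed under the filter, had at most 0.415 CPM. Hepatocyte markers were lower for 3 of 7 genes, with sums of 88160 to 130414.2 CPM in PF and 46489.2 to 94761.4 CPM in AF livers, and without AF replicate 6 for 5 of 7. The part of this shift in the levels of the members was not tested.

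The genes most like a member over all livers were found among 12486 genes by the root mean square difference of centred log2(CPM + 0.5) values over the 12 livers, which share a library kit and differ in depth as given above. For Cd34 these were Rcan3 (0.178), Cbx6 (0.182) and Tgfb3 (0.189). For Plvap they were Sptan1 (0.146), Tmco3 (0.152) and Art3 (0.158). For Stab2 they were Zbtb46 (0.151), Plekhg1 (0.172) and Mmrn2 (0.19), the last a gene of the endothelial matrix that is on the pan-endothelial list. The log2 fold changes of the genes like Cd34 were 1.79, 1.55 and 2.30 in that order, of those like Plvap 0.66, 0.69 and 0.85, and of those like Stab2 0.22, 0.29 and 0.35. The profiles compared include the difference between AF and PF, so fold changes near that of the member follow from the way these genes were chosen.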

How the data were processed

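Whole liver RNA of 5 PF and 7 AF mice was sequenced from a stranded TruSeq library per mouse, and the table deposited by the authors holds raw counts for each Ensembl gene. The submitters' processing notes name FastQC 0.10.1, TopHat2 2.0.13, HTSeq 0.10.0 and GRCm38. The gene annotation release and the strand setting are not given in the sources used here. Of the gene IDs, 54165 were named by GENCODE M21.

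Counts were tested in R 4.3.3 with edgeR 4.0.16 (TMM, filterByExpr by group, quasi-likelihood test without covariates, Benjamini-Hochberg adjustment over 14168 genes, threshold 0.05). Standard errors of log2 fold changes come from the F statistic. DESeq2 1.42.0, limma 3.58.1, other scalings, filters, thinning, a replicate block and each library left out in turn were alternatives. The 31 pairs of libraries within groups differed by at least 21.1 times the counting noise.

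The members and lists were chosen with earlier results of these data known. Named genes were the members, the 2 largest changes in each direction per list with a mean of at least 1 CPM past the threshold, and a set of endothelial genes whatever their values. Others, such as Il1a, Sele, Vcam1, Bmp2, Kit and Ccl21a, were named after their values were seen. In data simulated for AF against PF with 13969 genes tested, 75 of 100 2-fold and 96 of 100 4-fold changes were recovered, with 6 false calls.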

Additional observations from a re-analysis of the deposited data

Results flagged for a closer look

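No liver stood far from its group for a member. In 22 groups of values (the 10 members and the sinusoidal minus capillary difference, in PF and in AF), the gap of the highest or lowest liver to its neighbour was within Dixon's 95% limit in every case, where chance gives about 1.1 such gaps.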

How the results depend on the processing

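Of 240 alternative values of the members, 230 stayed on their side of the threshold with no called value changing sign, 9 passed it in addition and 1 (Plvap with pan-endothelial scaling) no longer did. The number of sinusoidal members called higher, 1 with all libraries, was 5 with library totals, 2 with limma-voom quality weights and 1 to 3 when 1 library was left out. The number of capillary members higher was 1 with pan-endothelial scaling. Over all genes, 3116 were higher and 2519 lower, against 6458 higher and 938 lower with library totals and 1328 higher with pan-endothelial scaling. Of 129 tested list genes, 48 were higher and 8 lower. With pan-endothelial scaling 27 were higher and 16 lower, and the number lower was 5 with upper-quartile factors, 4 with library totals, 16 with quality weights and 5 with genes kept from 1 count in any library. Ece1 turned to 0.07 with library totals. For these shifts the cause was not tested beyond the scaling itself.

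Same-numbered PF and AF livers did not deviate together, with correlations of 0.00335, -0.0749, 0.117, 0.0794 and 0.115 for numbers 1 to 5, and only numbers 2 and 3 matched best with their own number. With the replicate block on livers 1 to 5, the count of sinusoidal members higher was 2, with Stab1 at an edgeR adjusted p of 0.0454, and that of list genes lower 13. The same livers without the block, a setting added after seeing the data, gave 1 sinusoidal member higher and 14 list genes lower. In these livers Clec4g was -0.33 with and -0.32 without the block, Wnt2 was called lower (edgeR adjusted p = 0.0205 with and 0.0356 without the block) and Wnt9b higher (0.0386 and 0.0334). The lower call of Cdh13 was lost in these livers with the block (edgeR adjusted p = 0.0898) and also without it (0.0596). That of Prox1 was lost with the block (0.0554) and kept without it. The sinusoidal minus capillary difference was -0.88 to -0.66 when 1 library was left out. Of the members Nos3 had the fewest counts, 474 over all livers.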
